A study of Mus musculus with 6 samples.

Results

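The synaptic vesicle release machinery was described here through 32 genes of synaptic vesicles, the membrane fusion apparatus and the active zone, out of 54532 genes in the deposited files. They were taken by gene symbol from a list of known release genes. All 32 passed the filter on low values. The data are RNA sequencing libraries of cervical cord from C57BL/6 mice, labelled as biological replicates, 3 in each of 2 groups. Imiquimod mice had 50 mg of 5% imiquimod cream put on the shaved nape daily on 2 days, a model of psoriasis-like skin inflammation, and vehicle mice had an equal amount of vehicle cream. The labels give neither age nor sex, nor how many animals went into a library, so p-values measure the spread between these libraries. The tissue was whole cord, so each value averages over neurons and glia.

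At a synapse, vesicles filled with transmitter are tethered at the active zone, primed, and fused with the membrane when calcium enters. Fusion is driven by SNARE proteins: synaptobrevin (Vamp) on the vesicle, syntaxin and SNAP-25 on the plasma membrane. Synaptotagmins sense the calcium, complexins hold and release the assembled SNAREs, RIM, Munc13, bassoon and piccolo organise the release site, and NSF with SNAP adaptors takes spent SNARE complexes apart. Many of these proteins come in paralogous forms whose balance differs between brain regions. Synaptotagmin-2 and synaptobrevin-1 are known as the forms favoured in brainstem and spinal cord, synaptotagmin-1 and synaptobrevin-2 as those favoured in the forebrain.

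Few release genes passed the test between imiquimod and vehicle cords, and those that did were lower by modest amounts. Of the 32 genes, 3 fell and none rose, in limma's fit over all genes with Benjamini-Hochberg adjusted p under 0.05. The 3 were Syt7, a slow high-affinity calcium sensor, Sv2b, a vesicle glycoprotein, and Cplx2, a complexin. They make up 9.38% of the release genes, beside 5.34% of all 16513 tested genes called lower and 8.74% called higher, and 3 genes are too few to set the machinery apart from that background. The calls rest on few libraries: without imiquimod replicate 3, or without vehicle replicate 1, 2 or 3, limma called 0 release genes, and without imiquimod replicate 1 or 2 it called 2 or 9, all lower. Of all tested genes, 2.58% were called lower without imiquimod replicate 3, and 3.79% or 7.79% without imiquimod replicate 1 or 2. Without vehicle replicate 1, 2 or 3 that share was 1.13%, 1.52% or 1.52%. Limma voom on recovered fragments called 7 release genes lower and 0 higher. Voom called 6.71% of all tested genes lower, and 1493 of 16503 higher. At an unadjusted p under 0.05 there were 10 lower and 3 higher release genes, beside 13.9% lower and 16.3% higher of all tested genes. The median log2 change of the 32 genes was -0.13, with 23 negative and 9 positive values, beside a median of -0.01 over all tested genes. None of the 32 log2 changes was larger than 0.6 in size. For 19 genes the 95% interval of the log2 change lay wholly between -0.5 and 0.5. Log2 changes throughout are imiquimod minus vehicle on the log2(FPKM + 0.1) scale, with limma's SE, and this scale slightly understates the change of low genes.

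Every imiquimod library was deeper than every vehicle library, with 21242415 to 23200996 fragments recovered per imiquimod library and 18174411 to 20672881 per vehicle library. Depth and treatment therefore cannot be told apart by group. Of all tested genes 14.1% were called in either direction. Without vehicle replicate 1, 2 or 3 the 2326 calls became 847, 1022 or 1010, and without imiquimod replicate 3 they became 1260. Motor neuron, oligodendrocyte and astrocyte markers were present in every library, and the skeletal muscle genes Acta1 and Mylpf stood at 0.734 and 1.39 FPKM in imiquimod cords, against 0.592 and 1.28 FPKM in vehicle cords. Of the 5 muscle markers listed, only 2 passed the filter on low values and were tested, and neither was called.

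Imiquimod replicate 1 stood apart in long genes, a property that touches the release genes because several are very long. Over all 1371 tested genes with exons of 10 kb or more in total, its median log2 value lay 0.25 below the mean of the other imiquimod libraries, and over 2000 genes of 1 to 2 kb it lay 0.20 above. Among the vehicle libraries the same medians stayed within 0.04 of 0. For the 7 release genes of 10 kb or more, the median deviation of imiquimod replicate 1 was -0.46, and for the 25 shorter ones -0.08. Spearman's rank correlation of that deviation with exon length over the 32 genes was -0.71, a description over genes that share the same 3 libraries. Imiquimod replicate 1 was the lowest of all 6 libraries in 14 of the 32 genes. What set this library apart was not tested, and the changes of the 7 long genes are given with and without it.

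**Figure D1:**
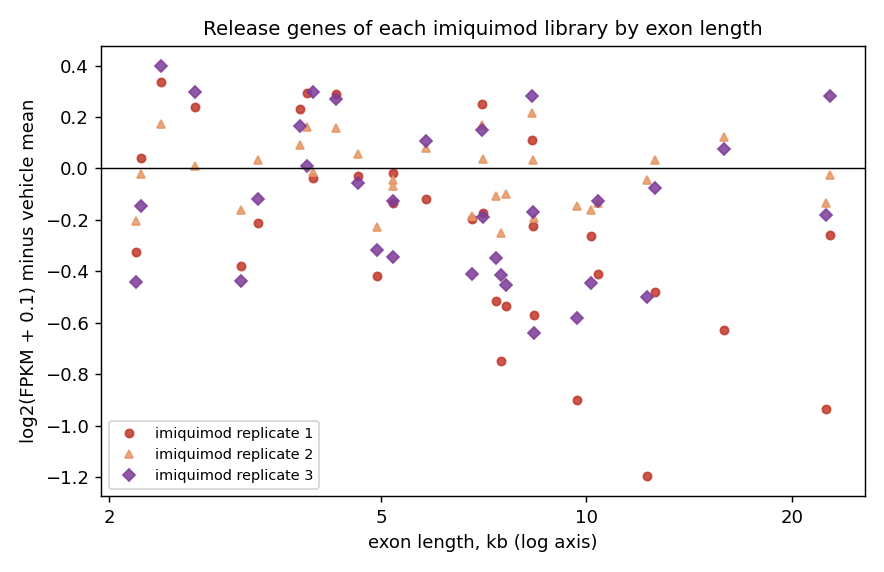
Each point is 1 release gene in 1 imiquimod library, at its total exon length in kb (log axis) and its log2(FPKM + 0.1) minus the mean of the 3 vehicle libraries. Imiquimod replicate 1 lies lowest among the longest genes, with a median deviation of -0.46 from the other imiquimod libraries over the 7 genes of 10 kb or more.

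The promoter windows of Cplx2, Sv2b and Cplx1 are shown because the first 2 were called lower and Cplx1 is the paralogue of Cplx2 with the same size of change. They come from RefSeq on GRCm38.p6 and cover 300 bases around an annotated start, 5′ to 3′ on the gene's strand. Capitals mark matches on either strand to GGGCGG (the GC box, which Sp1 binds) or TATAAA (the TATA box). The Cplx2 window at chr13:54302306-54302605 on the + strand belongs to a start 68793 bases away from the GENCODE start of the gene and holds neither motif. The Sv2b window at chr7:75309213-75309512 on the - strand, the one of 4 entries at the GENCODE start, holds 1 of each. The Cplx1 window at chr5:108549978-108550277 on the - strand lies 3 bases from the GENCODE start and holds 2 GC boxes.
Cplx2: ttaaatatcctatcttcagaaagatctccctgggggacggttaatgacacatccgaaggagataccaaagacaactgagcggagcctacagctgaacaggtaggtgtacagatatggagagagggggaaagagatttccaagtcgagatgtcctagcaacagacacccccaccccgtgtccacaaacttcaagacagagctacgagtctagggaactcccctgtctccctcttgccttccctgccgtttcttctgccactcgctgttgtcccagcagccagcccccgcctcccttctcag
Sv2b: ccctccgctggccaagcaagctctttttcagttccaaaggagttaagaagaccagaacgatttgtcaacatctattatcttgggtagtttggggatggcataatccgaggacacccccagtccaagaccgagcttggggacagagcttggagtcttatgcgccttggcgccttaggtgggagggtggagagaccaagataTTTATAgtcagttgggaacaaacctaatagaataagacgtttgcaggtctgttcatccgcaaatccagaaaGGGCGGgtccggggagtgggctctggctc
Cplx1: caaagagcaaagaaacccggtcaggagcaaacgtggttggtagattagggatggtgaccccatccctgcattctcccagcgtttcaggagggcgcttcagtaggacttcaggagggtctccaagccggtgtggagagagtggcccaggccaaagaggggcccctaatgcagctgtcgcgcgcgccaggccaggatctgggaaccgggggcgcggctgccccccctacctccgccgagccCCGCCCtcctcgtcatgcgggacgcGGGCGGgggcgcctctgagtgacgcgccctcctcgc

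Promoter windows were found for 25 of the 32 genes, 34 windows in all, and not for Vamp2, Syt7, Syt5, Syt4, Rims2, Snap25 and Syn3. The GC box occurred in 61.8% of these windows, beside 35.7% of all 32851 windows in the table. TATAAA occurred in 5.88% of the release windows, all of Sv2b, beside 13.6% of all windows. The cyclic AMP response element TGACGTCA was found in 1 release window, that of Syn1, and in 1.79% of all windows. TTCAGCACC, the left part of the RE1 element bound by the neuronal gene repressor REST, was found in windows of Syn1 and Unc13a and in 0.371% of all windows. A match describes the letters of the window and is not a measured binding site. None of the 4 motifs contains another.

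Levels differed widely between release genes. FPKM scales each gene by the total length of its annotated exons, used in cord or not, so comparisons between genes are approximate. In vehicle cords the mean ran from 0.711 FPKM for Unc13b to 614 FPKM for Cplx1, and 16 of the 32 genes stood in the top 10% of all tested genes. The order at the top was Cplx1 at 492 ± 40.2 FPKM in imiquimod cords and 614 ± 11.3 FPKM in vehicle cords (SD, n = 3 each), then Snap25 at 263 ± 22.4 FPKM in imiquimod cords and 315 ± 3.08 FPKM in vehicle cords, then Syt11 at 219 ± 21.1 FPKM in imiquimod cords and 247 ± 10.4 FPKM in vehicle cords. Rab3a followed, and Vamp1 came next. In imiquimod cords the same first 5 genes kept this order, and the ranges of Snap25 and Syt11 came as close as 237 and 236 FPKM there. Among the closest neighbours, Syp and Sv2a (114 ± 3.25 and 106 ± 0.417 FPKM in vehicle cords) were separated, whereas their imiquimod ranges overlapped. Fragments per library were at least 151 for every release gene, the lowest being Syn3, in imiquimod replicate 1.

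**Figure D2:**
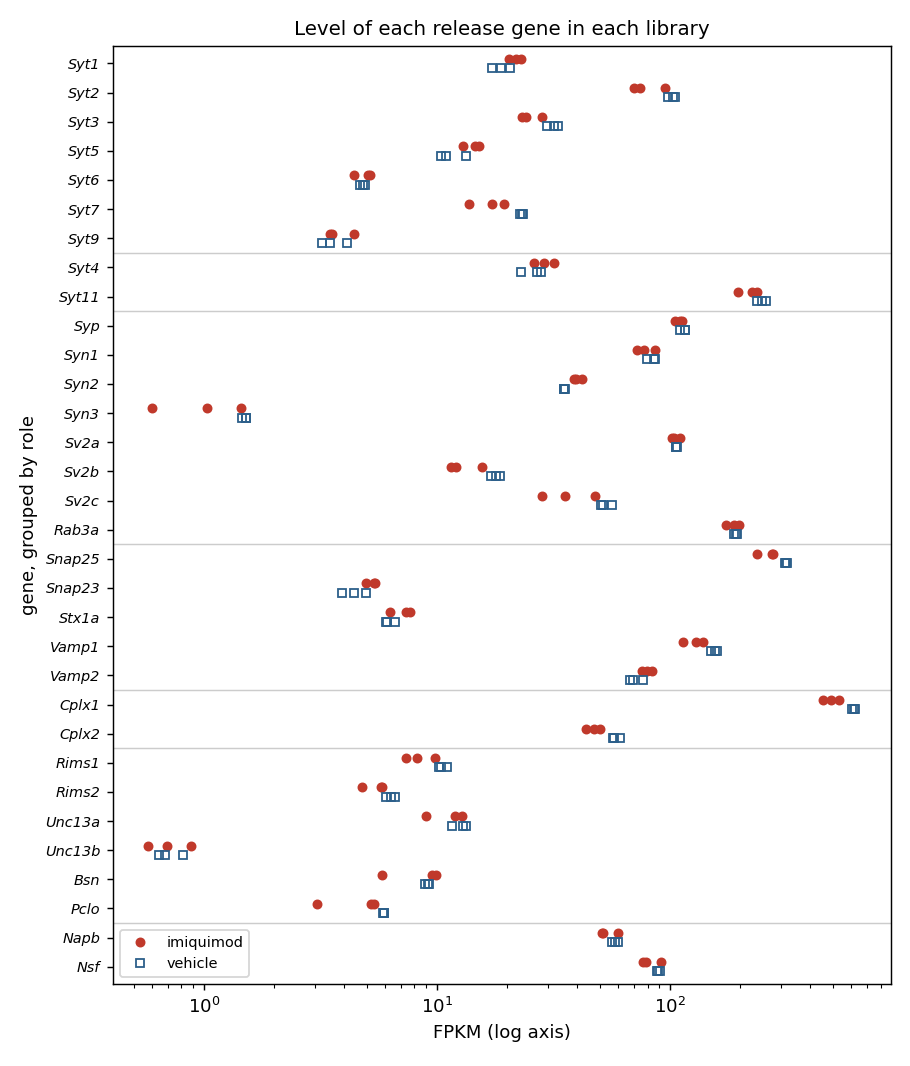
FPKM (log axis) of each of the 32 release genes in the 3 imiquimod libraries (filled circles) and the 3 vehicle libraries (open squares), grouped by role. Cplx1, Snap25 and Syt11 stand highest, and Sv2c spreads from 28.3 to 47.8 FPKM in imiquimod cords and from 50.6 to 56.3 FPKM in vehicle cords.

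Of the calcium-sensing synaptotagmins, 1 of 7 fell. Syt7, which serves asynchronous release and the refilling of vesicle pools, had 13.7, 19.4 and 17.3 FPKM in imiquimod cords, against 23.4, 22.6 and 23.2 FPKM in vehicle cords. Every imiquimod library lay below every vehicle library. The log2 change was -0.47 ± 0.12 (limma adjusted p = 0.0466), or -0.33 without imiquimod replicate 1 (limma adjusted p = 0.0392). The call ended without imiquimod replicate 3 (0.0947) or without vehicle replicate 1, 2 or 3 (0.146, 0.118 and 0.131), with no filter on low values (0.0838) and with libraries rescaled to an equal sum (0.0872), and adjusted p ran from 0.0166 to 0.146 over all alternatives. Syt7 lies at chr19:10389090-10453180 on GRCm38 (Ensembl ENSMUSG00000024743).

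Syt2, the fast sensor of hindbrain and spinal synapses, had 70.2, 95.1 and 74.4 FPKM in imiquimod cords, against 102.9, 104.7 and 97.7 FPKM in vehicle cords. The groups did not overlap, yet the test was not passed (-0.36 ± 0.12, limma adjusted p = 0.085). Without imiquimod replicate 2, its highest imiquimod library, Syt2 was called (limma adjusted p = 0.00788, over all alternatives 0.00788 to 0.223). Syt3, another high-affinity sensor, had 24.1, 28.1 and 23.2 FPKM in imiquimod cords and 31.8, 33.1 and 29.6 FPKM in vehicle cords. Its change of -0.33 ± 0.09 narrowly missed the threshold (limma adjusted p = 0.0526, over all alternatives 0.015 to 0.167). It was called with voom on fragments (0.0396), with voom and sample weights (0.0445), with a minimum FPKM of 1 (0.0479), with length and GC trends removed (0.0292) and without imiquimod replicate 2 (0.015).

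Syt1, the fast sensor of forebrain synapses, pointed the other way, with 20.3, 21.8 and 22.9 FPKM in imiquimod cords and 18.7, 17.2 and 20.5 FPKM in vehicle cords. The ranges overlapped through imiquimod replicate 1 and vehicle replicate 3, and the log2 change of 0.20 ± 0.08 did not pass (limma adjusted p = 0.158). It was called once length and GC trends were removed (log2 change 0.30, limma adjusted p = 0.0357, over all alternatives 0.0357 to 0.392). Syt5, found on dense-core vesicles, averaged 14.2 ± 1.13 FPKM in imiquimod cords and 11.5 ± 1.53 FPKM in vehicle cords (log2 change 0.30 ± 0.11, limma adjusted p = 0.115). Syt6 and Syt9 had log2 changes of 0.02 ± 0.08 and 0.08 ± 0.13. Neither passed. The value of Syt6 changed sign without imiquimod replicate 2 or 3, and that of Syt9 without imiquimod replicate 3.

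Syt4 and Syt11 are synaptotagmins not known as triggers of fast release. Syt4 averaged 28.8 ± 2.84 FPKM in imiquimod cords and 25.9 ± 2.58 FPKM in vehicle cords, with overlapping ranges. Syt11 had 225, 236 and 195 FPKM in imiquimod cords, against 258, 248 and 237 FPKM in vehicle cords. Its groups just failed to overlap, and neither gene passed the test (limma adjusted p = 0.354 for Syt4 and 0.226 for Syt11).

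Among 8 proteins of the vesicle membrane and surface, 1 fell. Sv2b, one of 3 SV2 glycoproteins that keep vesicles ready for release, had 12.02, 15.6 and 11.4 FPKM in imiquimod cords, against 17.9, 18.6 and 17.1 FPKM in vehicle cords. All imiquimod values were below all vehicle values, and the log2 change was -0.47 ± 0.12 (limma adjusted p = 0.0463). The call ended without any one library other than imiquimod replicate 2: without imiquimod replicate 1 or 3 adjusted p was 0.114 or 0.116, and without vehicle replicate 1, 2 or 3 it was 0.141, 0.14 or 0.108. It also ended with length and GC trends removed (0.0531), with no filter on low values (0.0832) and with libraries rescaled to an equal sum (0.0608), and over all alternatives adjusted p ran from 0.00456 to 0.141. Sv2b lies at chr7:75114894-75309262 on GRCm38 (Ensembl ENSMUSG00000053025).

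The paralogue Sv2c had a change of similar size with more spread, at 28.3, 47.8 and 35.3 FPKM in imiquimod cords, against 51.7, 56.3 and 50.6 FPKM in vehicle cords. The groups did not overlap, but imiquimod replicate 2 came near the vehicle range. The log2 change of -0.54 ± 0.18 did not pass (limma adjusted p = 0.0877), and without imiquimod replicate 2 it was -0.74 and passed (0.00931, over all alternatives 0.00931 to 0.222). Sv2a, the most widely expressed SV2 form, was level at 104, 110 and 102 FPKM in imiquimod cords and 107, 106 and 106 FPKM in vehicle cords. Its 95% interval of the log2 change was -0.15 to 0.13.

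Syp, which encodes synaptophysin, the most used marker protein of synaptic vesicles, averaged 109 ± 4.21 FPKM in imiquimod cords and 114 ± 3.25 FPKM in vehicle cords. Rab3a, a small GTPase that links vesicles to RIM, averaged 186 ± 12 FPKM in imiquimod cords and 191 ± 2.53 FPKM in vehicle cords. Intervals of the log2 change were narrow for both, -0.21 to 0.08 for Syp and -0.21 to 0.13 for Rab3a.

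None of the 3 synapsin genes, whose proteins tether reserve vesicles, was called. Syn2 was the only release gene whose imiquimod libraries all lay above the vehicle libraries, with 41.8, 39.4 and 38.9 FPKM in imiquimod cords, against 35.2, 35.04 and 34.9 FPKM in vehicle cords. Its log2 change of 0.19 ± 0.06 did not pass (limma adjusted p = 0.0657, over all alternatives 0.0428 to 0.203), and did with libraries rescaled to an equal sum (0.0428). Syn1 had a change of -0.10 ± 0.08, with overlapping groups. Syn3, the least abundant synapsin, had 0.596, 1.45 and 1.03 FPKM in imiquimod cords and 1.51, 1.51 and 1.46 FPKM in vehicle cords. Its change of -0.58 ± 0.28 was not called (limma adjusted p = 0.217) and was -0.27 without imiquimod replicate 1. Of the exon bases of Syn3, 14.1% are shared with Timp3 on the other strand, and whether counting used strand is not given in the sources used here.

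Limma called none of 5 SNARE genes, though 2 had an unadjusted p under 0.05 and voom called those 2, Snap25 and Vamp1. Snap25, the neuronal plasma membrane SNARE, had 275, 277 and 237 FPKM in imiquimod cords, against 318, 314 and 313 FPKM in vehicle cords, without overlap. Its log2 change was -0.26 ± 0.08 (limma adjusted p = 0.0807, over all alternatives 0.0247 to 0.246). It was called with libraries rescaled to an equal sum (0.0376), with voom on fragments (0.0476) and with voom and sample weights (0.0247), whereas with length and GC trends removed its change was -0.16 (0.204). Vamp1 had 129, 139 and 114 FPKM in imiquimod cords, against 156, 159 and 150.2 FPKM in vehicle cords, again without overlap (-0.29 ± 0.09, limma adjusted p = 0.0683, and -0.30 without imiquimod replicate 1). Voom without and with sample weights (0.0466 and 0.0342) and leaving out imiquimod replicate 2 (0.0356) called it, whereas with length and GC trends removed the change was -0.16 (0.267, the highest over all alternatives, the lowest being 0.0342).

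Vamp2, the forebrain form, had 83.4, 75.7 and 79.6 FPKM in imiquimod cords and 69.3, 67.5 and 76.7 FPKM in vehicle cords. Stx1a, a plasma membrane syntaxin, had 7.37, 6.27 and 7.69 FPKM in imiquimod cords and 6.08, 6.04 and 6.6 FPKM in vehicle cords. Snap23, the form of SNAP-25 used outside neurons and in glia, had 5.42, 4.94 and 5.35 FPKM in imiquimod cords and 4.41, 3.93 and 4.98 FPKM in vehicle cords. All 3 had positive log2 changes, of 0.16 to 0.24, overlapped between groups and did not pass.

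Both complexins were lower in every imiquimod library than in any vehicle library, and 1 of them was called. Cplx2 had 43.7, 49.9 and 47.0 FPKM in imiquimod cords, against 56.9, 57.5 and 61.1 FPKM in vehicle cords, a fall of 0.32 ± 0.07 on the log2 scale (limma adjusted p = 0.0277). Its call held with length and GC trends removed (0.0132) and without imiquimod replicate 1 (0.047). It ended without imiquimod replicate 3 (0.0659), without vehicle replicate 1, 2 or 3 (0.0936, 0.0892 and 0.107) and with libraries rescaled to an equal sum (0.0569), and adjusted p ran from 0.0132 to 0.107 over all alternatives. Cplx2 lies at chr13:54371349-54383917 on GRCm38 (Ensembl ENSMUSG00000025867).

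Cplx1, the most abundant release gene, had 489.9, 533 and 452 FPKM in imiquimod cords, against 618, 622 and 601 FPKM in vehicle cords. Its log2 change of -0.32 ± 0.09 matched that of Cplx2 in size but not in its test (limma adjusted p = 0.0563, over all alternatives 0.0148 to 0.227). It was called with a minimum FPKM of 1 (0.0479), with libraries rescaled to an equal sum (0.0359), with voom without and with sample weights (0.0225 and 0.0148), with length and GC trends removed (0.0287) and without imiquimod replicate 2 (0.045).

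At the active zone limma and voom called none of 6 genes, 1 of which, Rims1, had an unadjusted p under 0.05, and all 6 log2 changes were below 0. Rims1, the main RIM scaffold, had 7.33, 9.76 and 8.24 FPKM in imiquimod cords, against 10.2, 11.03 and 10.4 FPKM in vehicle cords, without overlap. Its log2 change was -0.32 ± 0.11 (limma adjusted p = 0.0943), and it was called without imiquimod replicate 2 (0.0191, over all alternatives 0.0191 to 0.245). Rims2 had 4.74, 5.75 and 5.79 FPKM in imiquimod cords and 6.04, 6.36 and 6.6 FPKM in vehicle cords, also without overlap and not called (-0.22 ± 0.10, limma adjusted p = 0.172). Its change was -0.13 without imiquimod replicate 1 and -0.10 with length and GC trends removed.

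The 2 giant scaffolds, with exons of 15938 bases for Bsn (bassoon) and 22457 bases for Pclo (piccolo), had their lowest value by far in imiquimod replicate 1. Pclo had 3.04, 5.37 and 5.19 FPKM in imiquimod cords, against 5.9, 5.93 and 5.86 FPKM in vehicle cords, and its log2 change of -0.42 ± 0.21 became -0.16 without that library (limma adjusted p = 0.225 with it and 0.161 without it). Bsn had 5.83, 9.88 and 9.55 FPKM in imiquimod cords and 9.24, 9.1 and 8.84 FPKM in vehicle cords. Its log2 change of -0.14 ± 0.19 turned to 0.10 without imiquimod replicate 1 and to 0.018 with length and GC trends removed. Unc13a, the main Munc13 priming factor, had a change of -0.17 ± 0.14 with overlapping groups, which became -0.021 without imiquimod replicate 1 and -0.044 with length and GC trends removed. Unc13b had a change of -0.00074 ± 0.22, also with overlapping groups, or 0.13 without imiquimod replicate 1. With length and GC trends removed Unc13b came to 0.25 (limma adjusted p = 0.425), and its sign also changed under 3 other settings and without some single libraries.

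Of the genes that take SNARE complexes apart, limma and voom called none, and 0 had an unadjusted p under 0.05. Nsf, the ATPase, averaged 82.2 ± 7.82 FPKM in imiquimod cords and 89.1 ± 1.23 FPKM in vehicle cords. Napb, its brain-specific adaptor, averaged 54 ± 4.81 FPKM in imiquimod cords and 58.1 ± 1.71 FPKM in vehicle cords. Neither was called (log2 changes of -0.12 ± 0.08 and -0.11 ± 0.08).

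**Figure D3:**
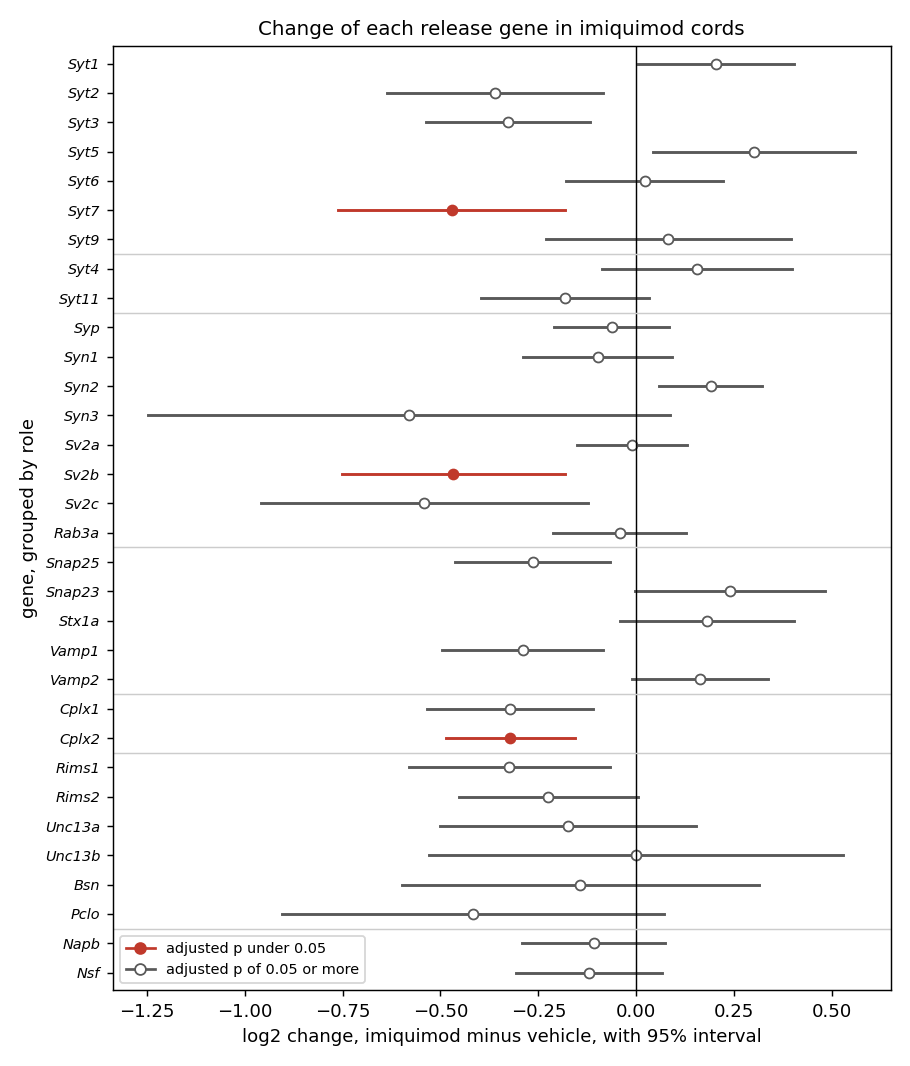
Log2 change of each release gene, imiquimod minus vehicle, with its 95% interval from limma, grouped by role. Filled symbols mark the 3 genes called at an adjusted p under 0.05, Syt7, Sv2b and Cplx2, and the remaining 29 intervals belong to genes not called.

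Groups that do not overlap were counted as well. Among the release genes 14 lay wholly lower in imiquimod cords and 1, Syn2, wholly higher, and 17 overlapped. Over all tested genes 37.9% did not overlap, with 18% wholly lower and 19.8% wholly higher. The 14 were Syt2, Syt3, Syt7, Syt11, Syn3, Sv2b, Sv2c, Snap25, Vamp1, Cplx1, Cplx2, Rims1, Rims2 and Pclo. They include 7 of the 8 genes with an adjusted p between 0.05 and 0.1, the other being Syn2.

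Ratios of paralogues within a library do not depend on how libraries were scaled against each other, and 8 pairs were compared. Synaptotagmin-2 relative to synaptotagmin-1 stood at a ratio of 3.46, 4.35 and 3.25 in imiquimod cords, against 5.5, 6.08 and 4.76 in vehicle cords. Synaptobrevin-1 relative to synaptobrevin-2 (Vamp1/Vamp2) was 1.55, 1.83 and 1.43 in imiquimod cords, against 2.25, 2.36 and 1.96 in vehicle cords. In both pairs the ratio was lower in all 3 imiquimod libraries than in any vehicle library. The ratio Sv2c/Sv2a was 0.272, 0.433 and 0.346 in imiquimod cords, against 0.485, 0.531 and 0.478 in vehicle cords. Higher in every imiquimod library than in any vehicle library were Snap23/Snap25 (mean 0.0201 ± 0.00238 in imiquimod cords and 0.0141 ± 0.00172 in vehicle cords) and Syn2/Syn1 (0.514 ± 0.0595 in imiquimod cords and 0.419 ± 0.0185 in vehicle cords).

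In log2 units these 5 ratios differed by -0.57 for Syt2/Syt1, -0.45 for Vamp1/Vamp2, -0.53 for Sv2c/Sv2a, 0.50 for Snap23/Snap25 and 0.29 for Syn2/Syn1. Each had a two-sided exact permutation p of 0.1, the smallest that 3 against 3 can give, and 0.16 adjusted over the 8 pairs, so none could pass. With length and GC trends removed Vamp1/Vamp2 came to -0.23, Sv2c/Sv2a to -0.35, Snap23/Snap25 to 0.39 and Syn2/Syn1 to 0.43. Syt2/Syt1, whose genes have similar exon lengths of 7638 and 8338 bases, came to -0.61. Cplx1/Cplx2 was equal in both groups, with a mean of 10.5 ± 0.802 in imiquimod cords and 10.5 ± 0.575 in vehicle cords. Rims2/Rims1 and Unc13b/Unc13a overlapped (exact permutation p of 0.3 and 0.4). None of the genes in the 5 ratios that did not overlap was called on its own. How often ratios of other gene pairs do not overlap was not measured. Among single tested genes 37.9% did not overlap.

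**Figure D4:**
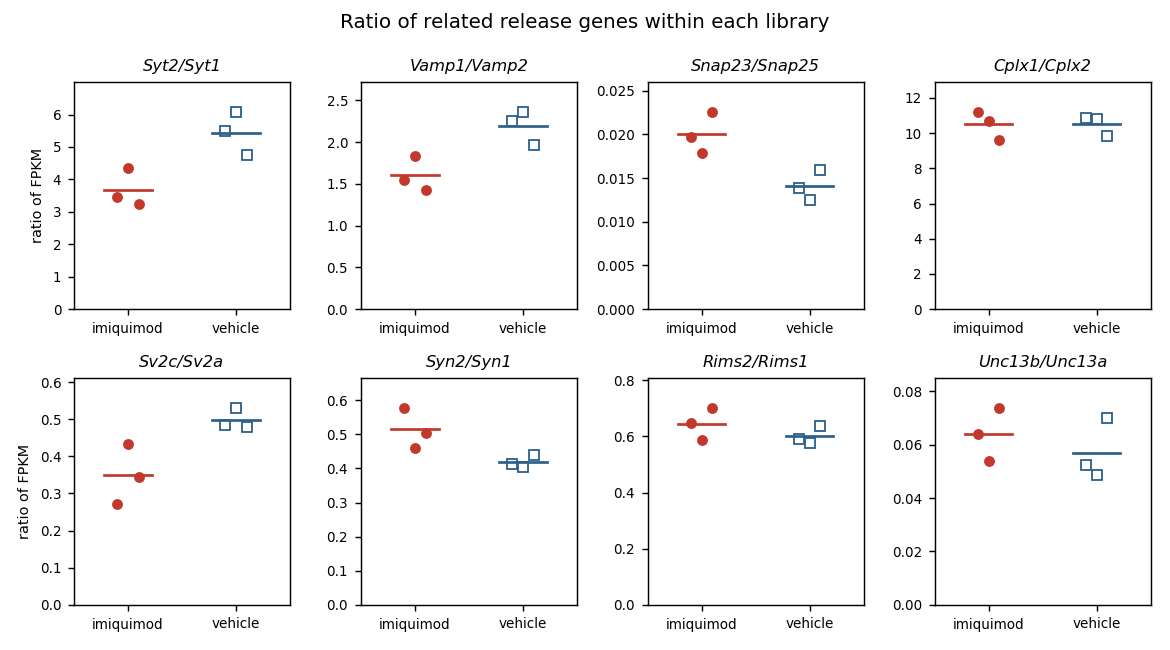
Ratio of FPKM of 2 related release genes within each library, for 3 imiquimod libraries (circles, left) and 3 vehicle libraries (squares, right), with the group mean as a line and each axis starting at 0. Syt2/Syt1, Vamp1/Vamp2 and Sv2c/Sv2a lie lower and Snap23/Snap25 and Syn2/Syn1 higher in all imiquimod libraries, and Cplx1/Cplx2 is at 10.5 in both groups. The share of other gene pairs whose ratios do not overlap was not measured.

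Beyond the 32 genes, other genes of the vesicle cycle gave few calls. Of 39 tested SNARE partners, priming and active zone genes, 3 fell and 1 rose, with a median log2 change of -0.13. The background for this and each later list is 5.34% of all tested genes called lower and 8.74% called higher. Unc13c, which encodes Munc13-3, a priming factor best known from the cerebellum, had 10.001, 10.4 and 10.7 FPKM in imiquimod cords, against 15.4, 15.4 and 17.3 FPKM in vehicle cords. Its fall of 0.62 ± 0.07 on the log2 scale (limma adjusted p = 0.0032) held under every alternative run. Rab27b, a vesicle GTPase, and Doc2a, a calcium sensor of spontaneous release, also fell, by 0.44 ± 0.09 and 0.30 ± 0.07 (limma adjusted p = 0.0212 and 0.0375). Cadps2, which primes dense-core vesicles, rose to 2.97 ± 0.3 FPKM in imiquimod cords, against 2.04 ± 0.197 FPKM in vehicle cords (0.52 ± 0.12, limma adjusted p = 0.0317).

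The calls of Rab27b, Doc2a and Cadps2 were less stable. Without vehicle replicate 1, 2 or 3, adjusted p became 0.0789, 0.0854 and 0.0837 for Rab27b, 0.132, 0.119 and 0.119 for Doc2a and 0.0746, 0.102 and 0.0885 for Cadps2. Without imiquimod replicate 1 the calls of Doc2a (0.0733) and Cadps2 (0.0571) ended, without imiquimod replicate 2 that of Doc2a (0.0636), and without imiquimod replicate 3 those of Rab27b (0.0513) and Cadps2 (0.0828). With no filter on low values Doc2a (0.0624) and Cadps2 (0.0646) were not called, nor was Doc2a with libraries rescaled (0.097) or with voom (0.0553). With length and GC trends removed the change of Rab27b was -0.24 (0.0826).

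Of 14 further vesicle membrane proteins and proton pump subunits, 1 fell and none rose (median log2 change -0.08). It was Scamp1, a carrier membrane protein, at 45.1 ± 2.73 FPKM in imiquimod cords and 55.9 ± 1.03 FPKM in vehicle cords (-0.31 ± 0.06, limma adjusted p = 0.0239). This call ended without imiquimod replicate 3 (0.0626) or without vehicle replicate 1, 2 or 3 (0.0962, 0.0869 and 0.0964). Limma called none of 4 tested vesicular transmitter transporters, 1 of which, Slc17a6, had an unadjusted p under 0.05, and their median was -0.14. Slc17a6, the glutamate transporter VGLUT2, was named after its values were seen and averaged 33.3 ± 2.07 FPKM in imiquimod cords and 39.2 ± 1.2 FPKM in vehicle cords. Of 31 genes of vesicle endocytosis and recycling, 1 rose and none fell (median -0.11). It was Dnm2, the dynamin used in all tissues, at 20.3 ± 1.49 FPKM in imiquimod cords and 16.2 ± 0.339 FPKM in vehicle cords (0.32 ± 0.07, limma adjusted p = 0.0299). The call ended with libraries rescaled to an equal sum (0.0708), without imiquimod replicate 2 or 3 (0.0513 and 0.0796) and without vehicle replicate 1, 2 or 3 (0.12, 0.0869 and 0.104).

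Of 18 neuron markers outside the release genes, 3 fell and none rose, with a median log2 change of -0.22. Over all tested genes 5.34% were called lower and 8.74% higher. They were the tau gene Mapt (-0.37 ± 0.07), the RNA-binding protein gene Elavl3 (-0.39 ± 0.07) and Rbfox3, which encodes NeuN (-0.37 ± 0.08). Leaving out vehicle replicate 1, 2 or 3 raised adjusted p to 0.0822, 0.0711 and 0.0582 for Mapt, 0.0889, 0.0735 and 0.0528 for Elavl3 and 0.0767, 0.0909 and 0.0824 for Rbfox3. Elavl3 was also not called without imiquimod replicate 3 (0.0542), nor Rbfox3 with libraries rescaled (0.0672). The summed level of the 18 markers was 2731, 2761 and 2217 FPKM in imiquimod cords, against 3100.2, 3036 and 2955 FPKM in vehicle cords. The summed level of the 32 release genes was 2167, 2329 and 2041 FPKM in imiquimod cords, against 2499, 2501 and 2463 FPKM in vehicle cords. Both sums were lower in every imiquimod library, lowest in imiquimod replicate 3 and highest, within the group, in imiquimod replicate 2. In bulk tissue, fewer neurons and less RNA per neuron cannot be told apart, and the part of neuronal content in the changes of release genes was not tested.

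Motor neuron markers showed a larger shift, with 5 of 8 tested markers lower, none higher and a median of -0.60. Their summed level was 71.9, 92.1 and 55.7 FPKM in imiquimod cords, against 115, 114 and 107 FPKM in vehicle cords. The 3 with the smallest p were Chodl, Prph and Chat, at log2 changes of -1.15 ± 0.26, -0.88 ± 0.21 and -0.62 ± 0.15. Leaving out imiquimod replicate 1 or any single vehicle library ended each of the 3 calls (adjusted p from 0.0703 to 0.135), having no filter on low values did so too (0.0618 to 0.0794), and that of Chat ended without imiquimod replicate 3 (0.0956). Imiquimod replicate 2 was nearest to the vehicle range in these markers, but this was not particular to them. The same library was nearest in every release gene that lay wholly lower except Rims2. It was also nearest in the astrocyte gene Slc1a2, at 84.8, 112 and 95.4 FPKM in imiquimod cords, against 158, 156 and 159 FPKM in vehicle cords. Of 11 dorsal horn neuron markers, 1 rose, the GABA-synthesising enzyme gene Gad2 (0.41 ± 0.06, limma adjusted p = 0.00717), and none fell. Their summed level was 219, 245 and 221 FPKM in imiquimod cords and 242, 251 and 244 FPKM in vehicle cords. The sum follows the abundant markers, whereas 7 of the 11 log2 changes were positive and 4 negative, with a median of 0.11. The abundant Slc6a5 averaged 55.1 FPKM in imiquimod cords and 74.4 FPKM in vehicle cords and was not called.

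Of 11 astrocyte markers, 3 fell (Gja1, Slc4a4 and Slc1a2) and 1, Aldh1l1, rose. Their summed level, in which abundant markers weigh most, was 1363 to 1549 FPKM in imiquimod cords and 1514 to 1578 FPKM in vehicle cords. The list was mixed, with 4 positive and 7 negative log2 changes and a median of -0.16. Among the positive ones, Gfap and Sox9 were not called (0.23 ± 0.09 and 0.27 ± 0.09). Of 8 oligodendrocyte markers, 2 fell (Opalin and Ermn), and the sum was 4946 to 6441 FPKM in imiquimod cords and 7643 to 8176 FPKM in vehicle cords. Of 6 oligodendrocyte precursor markers, 3 fell (Gpr17, Ptprz1 and Enpp6), with sums of 159.7 to 210.2 FPKM in imiquimod cords and 250.1 to 269.6 FPKM in vehicle cords. The log2 changes were positive for 1 and negative for 5, with a median of -0.48. Pdgfra and Cspg4, on the same list, were not called and had changes of 0.07 ± 0.17 and -0.01 ± 0.11. Among 8 microglia markers Tmem119 and Aif1 rose and Fcrls fell, with sums of 125 to 160.1 FPKM in imiquimod cords and 102 to 114 FPKM in vehicle cords. The sum follows the abundant markers: 4 of the 8 log2 changes were positive and 4 negative, with a median of 0.087. The calls of Gja1, Slc4a4, Slc1a2, Aldh1l1, Gpr17, Tmem119, Aif1, Fcrls and Gad2 held without each single library, whereas those of Opalin, Ermn, Ptprz1 and Enpp6 ended without vehicle replicate 1, 2 or 3 (adjusted p from 0.0519 to 0.144). Without imiquimod replicate 1 those of Ermn (0.0783) and Enpp6 (0.0658) ended too, and without imiquimod replicate 3 those of Ermn (0.0659), Enpp6 (0.0537) and Ptprz1 (0.0595). The part of these shifts in the values of release genes was not tested.

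**Figure D5:**
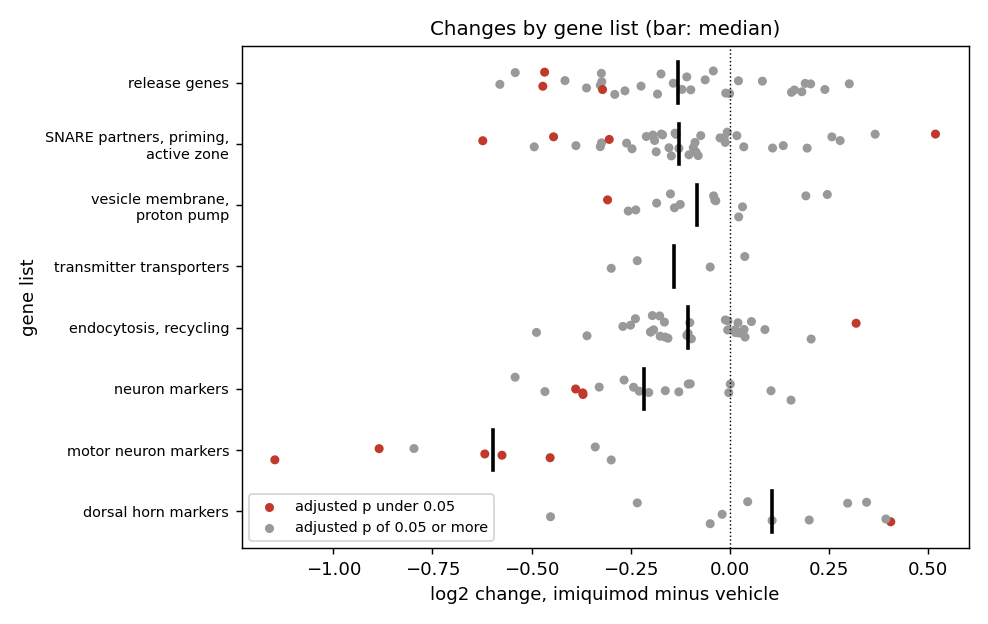
Log2 change of each tested gene, imiquimod minus vehicle, for the release genes, 4 lists of other vesicle cycle genes and 3 lists of neuron markers, with the list median as a bar. Red points passed an adjusted p of 0.05. The medians of the release and vesicle cycle lists lie between -0.14 and -0.08, that of motor neuron markers at -0.60 and that of dorsal horn markers at 0.11.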

How the data were processed

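RNA was measured in 3 imiquimod and 3 vehicle libraries of cervical cord. Per the labels' protocols, tissue was frozen and RNA taken up in Trizol. The deposited values are FPKM per Ensembl gene, a unit read from the values: FPKM times exon length came out as whole multiples of 1 step per library, within 0.05 fragments, for 97.4% to 97.6% of values under 1000 fragments. HISAT2 2.0.5, featureCounts 1.5.0-p3, DESeq2 1.16.1 and mm10 are named in the submitters' processing notes, without roles. How strand and multi-mapping reads were treated is not given in the sources used here. Symbols, coordinates and exon lengths came from GENCODE M21 on the same assembly.

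The main test was limma 3.58.1 in R 4.3.3 on log2(FPKM + 0.1) with the prior variance following the mean, over 16513 genes whose mean reached 0.5 FPKM in 1 or both groups, with Benjamini-Hochberg adjustment over all of them and a threshold of 0.05. No result of the main test on simulated data is reported here. Paralogue ratios used exact permutation over samples. Alternatives were another pseudocount (1 FPKM), other filters, rescaling to an equal sum, voom on recovered fragments without and with sample weights, removal of trends on exon length and GC, a replicate block, and leaving out each library. Python 3.11.15, pandas 2.3.3, NumPy 2.4.6 and matplotlib 3.10.9 did the rest. Depth, in recovered fragments, is given with the results.

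Named genes were the 32 release genes, up to 4 called genes per direction of each vesicle cycle list and up to 3 of each marker list. Where no marker was called, the 2 most abundant were named. Slc17a6, Slc6a5, Gfap, Sox9, Pdgfra and Cspg4 fall outside this rule and were named after their values were seen. Of 42 SNARE partner, priming and active zone genes, Vamp7 and Tprg1l were not matched by symbol. Members and lists were chosen with earlier results of these data known. The motifs searched in promoters were chosen after the expression values were seen. Exons of 12 release genes share bases with another gene, over 10% only in Syt4, Syp and Syn3.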

Additional observations from a re-analysis of the deposited data

How the results depend on the processing

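With 14 alternatives, 26 of the 32 release genes kept the sign of their change throughout. The count of release genes called lower, 3, became 1 with no filter on low values, beside 1.6% of all tested genes. It became 2 with libraries rescaled to an equal sum (4.32% of all tested genes) and 4 with length and GC trends removed (7.32%). With a minimum FPKM of 1 it was 5 (6.47%). With voom on fragments it was 7, without or with sample weights (6.71% and 7.05% of all tested genes). The count called higher, 0, became 1 with libraries rescaled to an equal sum (Syn2) and 1 with length and GC trends removed (Syt1). Of all 16513 tested genes, 1461 and 1597 were called higher under these settings. Leaving out 1 library gave 0 to 9 lower (9 without imiquimod replicate 2) and 0 higher, and 847 to 2986 calls of all genes. The share of all tested genes called lower then ran from 1.13% to 7.79%. The median change of the release genes ran from -0.22 to -0.0797. Sv2a turned to 0.00368 with libraries rescaled and 0.00196 with weighted voom. Unc13b turned to 0.0025 with a pseudocount of 1 FPKM, 0.012 with libraries rescaled, 0.041 with weighted voom and 0.25 with length and GC trends removed. Bsn turned to 0.018 with those trends removed. Leaving out 1 library gave Syt6 -0.0206 to 0.092, Syt9 -0.025 to 0.18, Sv2a -0.043 to 0.012, Rab3a -0.083 to 0.0094, Unc13b -0.14 to 0.13, Bsn -0.28 to 0.0996 and the log2 ratio Cplx1/Cplx2 -0.050 to 0.059. The causes were not tested. The replicate numbers did not pair the samples: deviations of same-numbered libraries correlated across genes at 0.019, -0.097 and -0.033. With the replicate block 1 release gene, Sv2b, was called lower, beside 2.64% of all tested genes. In either direction 1330 genes of all were called. Of the genes named with the results, the block ended the calls of Syt7 (0.0748), Cplx2 (0.0666), Scamp1 (0.0718), Dnm2 (0.066), Doc2a (0.0913), Rab27b (0.0648), Cadps2 (0.0621), Chat (0.0706), Ermn (0.0812) and Ptprz1 (0.0534). Unc13b did not reach the minimum of 1 FPKM. A release gene not called may still differ by as much as its interval allows.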
